A study of Sus scrofa with 22 samples.

Results

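PEG10, PLAGL1 and MEG3 are 3 imprinted genes that were measured by 8 of the 23999 probe sets tested on an Affymetrix porcine array. They comprise every probe set annotated to 1 of these symbols alone, 3 for PEG10, 3 for PLAGL1 and 2 for MEG3. The members were chosen by measured values, the differences of their signals between the stages of these same samples, so their levels by stage are given as a description with no test. The study measured total RNA from 22 pigs, offspring of German Landrace gilts, at 4 stages: 6 fetuses at 94 days post conception (94 dpc), 6 newborns at 1 day after birth (1 dpn), 6 piglets at 28 dpn and 4 pigs at 188 dpn. All dams received the gestational adequate protein (AP) diet, so no diet is compared. Each stage drew on litters of 3 gilts, and no label ties an animal to its gilt, so stage and dam cannot be told apart. The sample labels name the tissue liver and the series title names muscle.

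Imprinted genes are read from the copy inherited from one parent while the other copy is kept silent by marks set in the germ line, and many of them act on growth before birth. PEG10, expressed from the paternal copy, descends from a retrotransposon, encodes Gag- and Pol-like proteins and is required for the placenta. PLAGL1, also expressed from the paternal copy, encodes a zinc finger transcription factor that restrains proliferation and acts on other imprinted genes. MEG3, expressed from the maternal copy, gives a long non-coding RNA of the DLK1-DIO3 imprinted domain, which is active in fetal muscle.

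The 5 genes with the highest mean signal among probe sets with a single symbol were MYL1, TPM1, GAPDH, MYLPF and CKM, 4 of them muscle structural or creatine kinase genes. The summed signal of the 4 measured muscle fibre markers (CKM, MYLPF, MYH2 and TNNT3) lay between 110618 and 335577 over the 22 arrays. That of 6 hepatocyte markers (ALB, APOA1, TTR, SERPINA1, FGB and CPS1) lay between 1337 and 29015, with 7437 to 29015 at 94 dpc and 1337 to 4087 at 188 dpn. These signals are those of muscle and not of the liver that the labels name, and the RNA is described as muscle from here on. The arrays carry probe pairs at the 5′ and 3′ ends of control genes, and a low 5′ signal marks shortened RNA or short labelled copies. Newborn replicates 2 to 5 had a GAPDH 5′ to 3′ ratio of 0.280 to 0.442, against 0.864 and 0.870 in newborn replicates 1 and 6 and 0.653 to 0.876 at the other stages. These 4 newborn arrays are called the low 5′ arrays and the other 2 the even arrays, and differences from the newborn stage are also given on the even arrays alone for the brightest probe set of each member, the dimmer one of MEG3 and the calls of other named genes. The counts of calls over lists and markers use all newborns unless stated.

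PEG10 was the most strongly graded of the 3 genes, and its signal was lower at every later stage with no overlap between neighbouring stages. Its brightest probe set, Ssc.13476.1.A1_at, ranged from 15175 to 19986 in the fetuses, with a median of 16806. In the newborns it ranged from 2609 to 4563, with a median of 3074. At 28 dpn it ranged from 264 to 498 with a median of 385. So the lowest fetus was above the highest newborn, and the lowest newborn above the highest piglet. At 188 dpn the 4 pigs had 191, 133, 136 and 148, all below the lowest piglet at 28 dpn and all above the background of the array, a signal of 69.7. This background is the level below which 95% of the signals of 23 controls lay, whose targets the samples do not hold.

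The mean signal of PEG10 was 17078 ± 1663 (SD, n = 6) at 94 dpc and 3243 ± 689 (SD, n = 6) at 1 dpn. It was 381 ± 94.0 (SD, n = 6) at 28 dpn and 152 ± 26.5 (SD, n = 4) at 188 dpn. Relative to the fetal mean these are 19.0%, 2.23% and 0.889%. On the log2(signal + 16) scale, which understates the change of dim probe sets, the difference from 94 dpc to 1 dpn was -2.41 (SE 0.13), a 5.31-fold lower level. From 1 dpn to 28 dpn it was -3.05 (SE 0.18), 8.27-fold lower, and from 28 dpn to 188 dpn -1.22 (SE 0.18), 2.33-fold lower. From the fetus to 188 dpn it was -6.68 (SE 0.12), 102-fold lower. In whole-tissue RNA, fewer cells that express a gene and less of its RNA per cell cannot be told apart. With the 2 even newborn arrays alone the first difference was -2.39 and the second -3.06. Among the newborns r of PEG10 with the GAPDH ratio was 0.24 (exact permutation p = 0.71) and rho was 0.77 (exact permutation p = 0.10, adjusted p = 0.61).

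Absence of overlap is common between these stages and the members were selected for it, so nothing is read from the count. Of all probe sets, 11.2% were lower at 1 dpn than at 94 dpc with no overlap, 3.05% lower at 28 dpn than at 1 dpn, 8.13% lower at 188 dpn than at 28 dpn and 21.4% lower at 188 dpn than at 94 dpc. In all 3 successive steps together it was 13 probe sets, 0.0542%. Those 13 include Ssc.13476.1.A1_at of PEG10 and Ssc.26773.1.A1_at of PLAGL1, genes chosen for their stage differences, so nothing is read from their place there. The brightest PLAGL1 probe set and both MEG3 probe sets are not among them, since each overlapped in at least 1 step.

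The remaining PEG10 probe sets did not show this gradient. Ssc.24007.1.S1_at had mean signals of 76.2, 48.5, 77.3 and 58.8 from the fetus to 188 dpn, and 13 of its 22 values lay below the background. Ssc.24007.2.S1_at had means of 9.06, 24.3, 37.1 and 36.9, with 20 of 22 values below the background. For both, the ranges of neighbouring stages overlapped at each of the 3 steps, and no fold is given. The account of PEG10 therefore rests on 1 probe set.

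**Figure D1:**
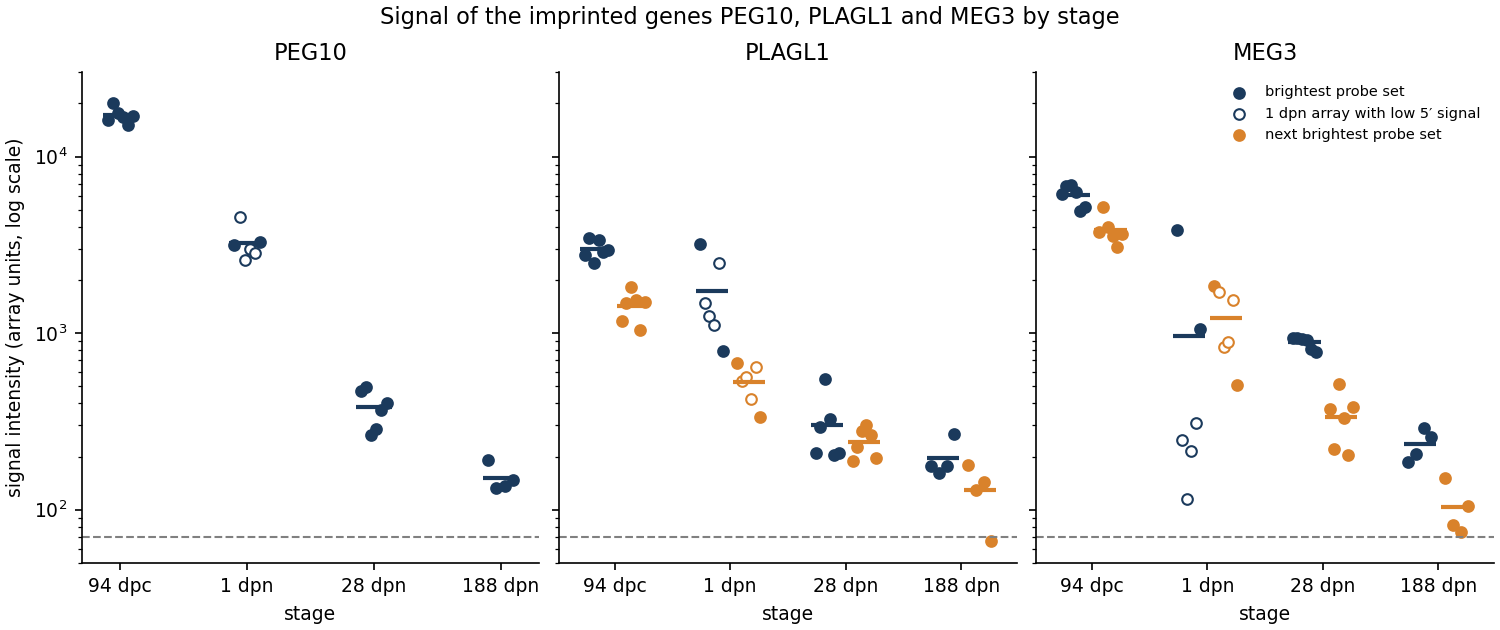
Signal intensity on a log axis against stage for the brightest probe set of PEG10 and the 2 brightest each of PLAGL1 and MEG3. The dim PEG10 probe sets are not drawn, nor is the dimmest PLAGL1 probe set, with stage means of 111, 112, 61.4 and 71.5. Each point is 1 animal, bars are stage means and the dashed line is the array background of 69.7. Open circles are the 4 newborn arrays with low 5′ signal. PEG10 steps down at each stage without overlap, PLAGL1 and MEG3 spread widely at 1 dpn, and the open circles of the brightest MEG3 probe set lie at 115 to 311, below every 28 dpn value of that probe set.

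PLAGL1 was high in the fetus, spread widely among newborns and was low from 28 dpn on. Its brightest probe set, Ssc.9617.1.A1_at, ranged from 2489 to 3475 in the fetuses, with a median of 2903. In the newborns it ranged from 796 to 3206 with a median of 1367, and at 28 dpn from 204 to 553 with a median of 253. The 4 pigs at 188 dpn had 176, 161, 177 and 269. Newborn replicate 1, at 3206, and newborn replicate 5, at 2493, lay within the fetal range, and the other 4 newborns lay below it. All newborns lay above all piglets at 28 dpn, and 28 dpn and 188 dpn overlapped.

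The PLAGL1 mean was 2985 ± 368 (SD, n = 6) at 94 dpc, 1723 ± 928 (SD, n = 6) at 1 dpn, 299.7 ± 134 (SD, n = 6) at 28 dpn and 196 ± 49.3 (SD, n = 4) at 188 dpn. The highest newborn was 4.03-fold above the lowest, against 1.40-fold in the fetuses. The log2 difference was -0.94 (SE 0.31) from 94 dpc to 1 dpn and -2.39 (SE 0.37), 5.24-fold lower, from 1 dpn to 28 dpn. From 28 dpn to 188 dpn it was -0.51 (SE 0.27), and the ranges of these stages overlapped for this brightest probe set. Over the whole span it was -3.84 (SE 0.17), 14.3-fold lower. The 2 even newborn arrays hold both the highest newborn value (3206) and the lowest (796), so the newborn spread of PLAGL1 is as wide without the low 5′ arrays. On them alone the first differences were -0.88 and -2.45.

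The next brightest PLAGL1 probe set, Ssc.26773.1.A1_at, was graded more evenly. It ranged from 1040 to 1835 in the fetuses (median 1494), from 335 to 673 in the newborns (median 549) and from 190 to 301 at 28 dpn (median 246). The 4 pigs at 188 dpn had 179, 129, 143 and 66.5. No neighbouring stages overlapped, and the log2 differences were -1.42 (SE 0.19), -1.06 (SE 0.18) and -0.88 (SE 0.29). The probe sets of PLAGL1 thus placed its decline differently. The brightest had the larger difference after birth, at -2.39 against -1.06, and the next brightest across birth, at -1.42 against -0.94. The dimmest, Ssc.24770.1.S1_at, had means of 111, 112, 61.4 and 71.5, with overlap at each step.

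MEG3 was high in the fetus and low at 188 dpn by both of its probe sets, which differed at 1 dpn. Its brightest probe set, Ssc.5159.2.S1_at, ranged from 4895 to 6903 in the fetuses, with a median of 6210. The newborn values were 3860 and 1059 on the even arrays and 249, 115, 214 and 311 on the low 5′ arrays. The piglets at 28 dpn ranged from 784 to 942 with a median of 919, and the 4 pigs at 188 dpn had 187, 206, 292 and 258. Both even newborn arrays lay between the fetal and the 28 dpn range, while the 4 low 5′ arrays lay below all values at 28 dpn and near those at 188 dpn. The 28 dpn values were the tightest of any stage of this probe set, 1.20-fold from lowest to highest.

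By this probe set the mean MEG3 signal was 6031 ± 830 (SD, n = 6) at 94 dpc, 968 ± 1457 (SD, n = 6) at 1 dpn, 885 ± 70.2 (SD, n = 6) at 28 dpn and 236 ± 48.0 (SD, n = 4) at 188 dpn. Over all newborns the log2 difference was -3.67 (SE 0.74) from 94 dpc to 1 dpn and 0.93 (SE 0.73) from 1 dpn to 28 dpn, the latter with overlap. With the 2 even arrays alone these were -1.56 (SE 0.93) and -1.18 (SE 0.93), so the sign of the second step depends on the low 5′ arrays. The difference from 28 dpn to 188 dpn was -1.86 (SE 0.15), 3.62-fold lower with no overlap. From 94 dpc to 188 dpn, stages whose arrays all had even 5′ signal, it was -4.59 (SE 0.16), 24.1-fold lower.

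The dimmer MEG3 probe set, Ssc.5159.3.A1_a_at, followed a steady gradient. It ranged from 3057 to 5146 in the fetuses (median 3677), from 506 to 1852 in the newborns (median 1211) and from 205 to 512 at 28 dpn (median 351). The 4 pigs at 188 dpn had 151, 82.0, 74.5 and 104. Its log2 differences were -1.76 (SE 0.31), -1.74 (SE 0.35) and -1.54 (SE 0.28), and -5.04 (SE 0.22), 33.0-fold lower, from the fetus to 188 dpn. The only overlap was between the lowest newborn, 506, and the highest piglet at 28 dpn, 512. With the even newborn arrays alone the first differences were -1.95 and -1.55.

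The ratio of the brighter to the dimmer MEG3 probe set put the newborn arrays into separate ranges. It was 1.32 to 1.77 in the fetuses, 1.82 to 4.23 at 28 dpn and 1.24 to 3.92 at 188 dpn. It was 2.08 and 2.09 on the even newborn arrays and 0.138 to 0.240 on the low 5′ arrays. The mean log2 value of the brighter probe set was 3.17 higher on the even than on the low 5′ arrays, a difference larger than that of 99.9% of all probe sets. For the dimmer MEG3 probe set the same difference was -0.28, for the brightest PEG10 probe set 0.02 and for the brightest PLAGL1 probe set 0.09, beside a median of -0.13 over all probe sets. The part of RNA or label length in the newborn values of the brighter MEG3 probe set was not tested, since where each probe set lies on the transcript was not analysed here. The corresponding ratio of the PLAGL1 probe sets was 2.23 to 3.86 on the low 5′ arrays and 2.37 and 4.76 on the even arrays, which overlap.

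**Figure D2:**
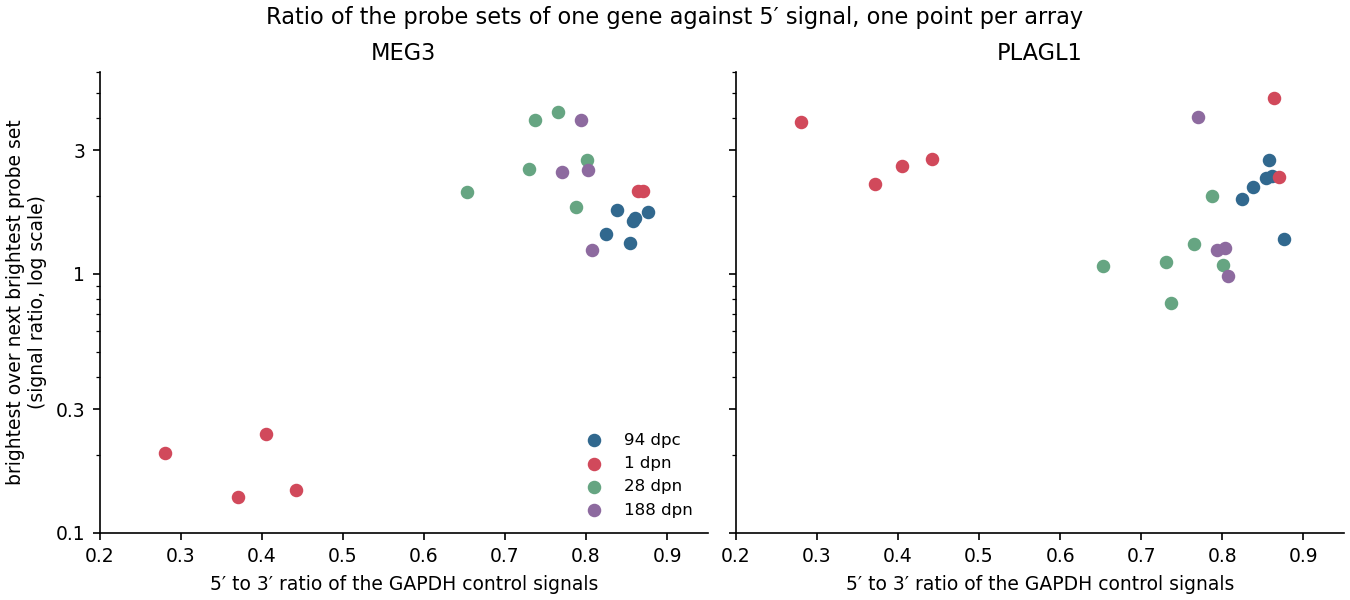
Signal of the brightest probe set over that of the next brightest (log axis) against the 5′ to 3′ ratio of the GAPDH control signals, for MEG3 (left) and PLAGL1 (right); each point is 1 array, coloured by stage. For MEG3 the 4 newborn arrays with low 5′ signal lie at 0.138 to 0.240 and the other 18 at 1.24 to 4.23, and for PLAGL1 the newborn arrays of both kinds overlap.

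In the order of stages, 94 dpc was highest and 188 dpn lowest by mean signal in each of the 5 brighter probe sets of the 3 genes. The genes were chosen for their stage differences, so nothing is read from this shared order. The dim PEG10 and PLAGL1 probe sets did not hold it. The middle order held 1 dpn above 28 dpn by mean signal in all 5. By mean log2 value the brightest MEG3 probe set was the exception, at 8.88 at 1 dpn and 9.81 at 28 dpn. Neighbouring stages that overlapped were 94 dpc and 1 dpn for the brightest PLAGL1 probe set, 1 dpn and 28 dpn for both MEG3 probe sets, and 28 dpn and 188 dpn for the brightest PLAGL1 probe set.

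Whether animals of one stage with more of one of these genes also had more of another was examined within stages of 6 animals, by exact two-sided permutation tests of the brightest probe sets. With the GAPDH 5′ to 3′ ratio included this gave 18 relations, and none passed after Benjamini-Hochberg adjustment. For PEG10 and PLAGL1 Pearson's r was 0.41 in the fetuses (exact permutation p = 0.42), -0.08 in the newborns (p = 0.90) and -0.69 at 28 dpn (p = 0.13). The lowest p was that of MEG3 with the GAPDH ratio in the newborns, at r = 0.84 (exact permutation p = 0.0417, adjusted p = 0.52) and rho = 0.60 (exact permutation p = 0.24). The 2 newborns farthest from the median ratio are replicates 1 and 6, the even arrays. Without them, among the 4 low 5′ arrays alone, r was -0.32. That relation thus rests on the gap between the even and the low 5′ arrays.

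With the dimmer MEG3 probe set in place of the brighter one, a choice made after seeing the data, newborns with more PLAGL1 also had more MEG3. Newborn replicates 1, 2 and 5 had MEG3 signals of 1852, 1708 and 1531 and PLAGL1 signals of 3206, 1478 and 2493. Replicates 3, 4 and 6 had MEG3 signals of 838, 892 and 506 and PLAGL1 signals of 1257, 1108 and 796. Pearson's r was 0.87 (exact permutation p = 0.0236, adjusted p = 0.21 over 18 relations) and rho was 0.89 (exact permutation p = 0.0333, adjusted p = 0.46), so neither passed the adjustment. Without the 2 newborns farthest from the median of PLAGL1, which leaves 4 animals, r was 0.93 (exact permutation p = 0.17). The corresponding r in this setting was 0.39 in the fetuses (exact permutation p = 0.46) and 0.53 at 28 dpn (exact permutation p = 0.27). For PEG10 and the dimmer MEG3 probe set in the fetuses r was 0.96 (exact permutation p = 0.00694, adjusted p = 0.125) and rho was 0.83 (exact permutation p = 0.0583), with r = 0.56 once the 2 farthest fetuses were left out.

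**Figure D3:**
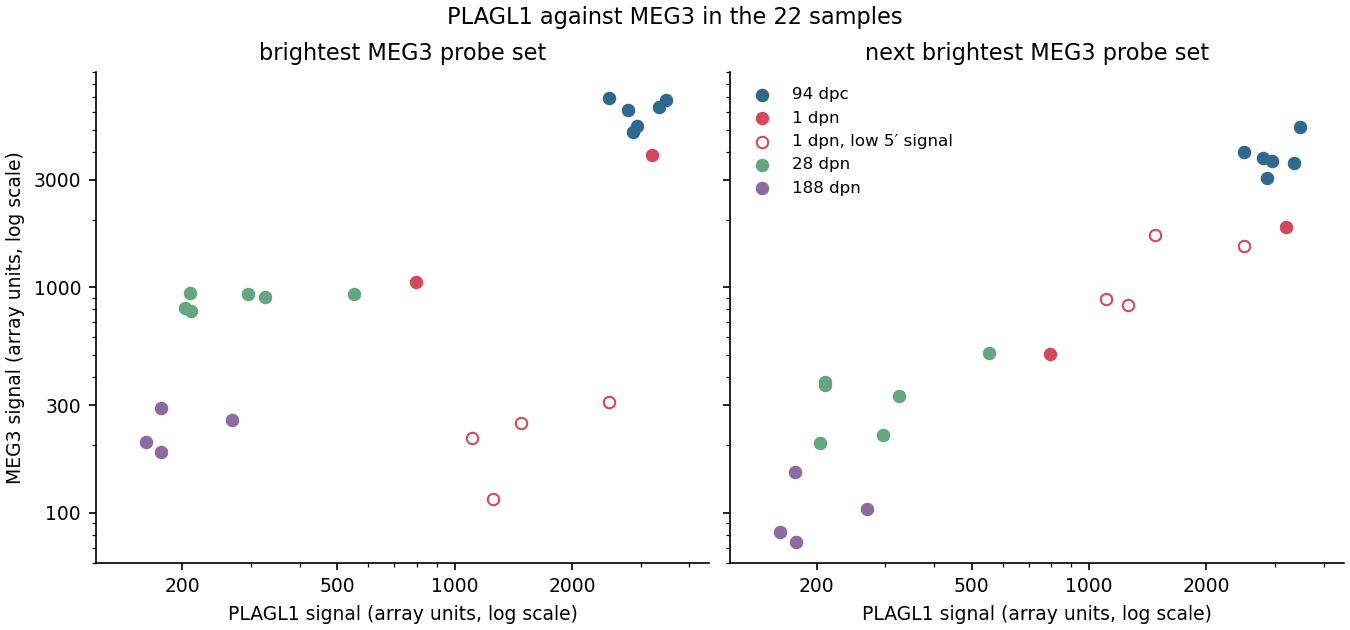
Signal of the brightest PLAGL1 probe set (x axis) against the brightest (left) and the next brightest (right) MEG3 probe set (y axis), both on log axes, 1 point per animal; open circles are the newborn arrays with low 5′ signal. On the right the newborns run from 796 and 506 to 3206 and 1852 along the line of the other stages, and on the left the 4 open circles, at MEG3 signals of 115 to 311, leave it.

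Over all 22 samples the gradients of the members ran closely alongside each other. The correlation of log2 values was 0.96 between PEG10 and the dimmer MEG3 probe set, 0.95 between PLAGL1 and the dimmer MEG3 probe set and 0.94 between PEG10 and PLAGL1. With the brighter MEG3 probe set it was 0.69 for PEG10 and 0.63 for PLAGL1. These values share the stage differences for which the genes were chosen and carry no p. After subtracting the stage means they were 0.13, 0.69 and -0.28 for the first 3 pairs. With the next brightest PLAGL1 probe set in place of the brightest, the second of these was 0.44.

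The genes most like each member were ranked by Pearson's r over the 22 samples among probe sets with a single symbol and above-median signal, again as a description with no p. For PEG10 they were TNPO2 (r = 0.98), a nuclear import receptor, FGFR1 (0.96), a fibroblast growth factor receptor, WDYHV1 (0.96), MEG3 by its dimmer probe set (0.96) and SEC31A (0.96), a coat protein of vesicles leaving the endoplasmic reticulum. All 5 shared the gradient across stages, and their r after subtracting the stage means lay between -0.20 and 0.27. FGFR1 had mean signals of 2056, 1072, 586 and 334 from the fetus to 188 dpn.

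For PLAGL1 the most alike were MEG3 by its dimmer probe set (r = 0.95), FUBP3 (0.94), PEG10 (0.94), TMEM42 (0.93) and UBE2E2 (0.93), a ubiquitin-conjugating enzyme. After subtracting the stage means r was 0.69 for MEG3, 0.61 for UBE2E2, 0.54 for FUBP3, 0.15 for TMEM42 and -0.28 for PEG10. For the brighter MEG3 probe set they were SEC11A (0.95), a signal peptidase subunit, POLDIP3 (0.95), EGFR (0.94), the epidermal growth factor receptor, SVBP (0.93) and LOC100158040 (0.92). Here the r after subtracting the stage means was 0.66 to 0.87. The part of the low 5′ arrays in this second ranking was not tested gene by gene, and the MEG3 probe set that was ranked differs between those arrays by the 3.17 given above.

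Of 66 other genes listed as imprinted in mammals, 33 had a probe set with their symbol. H19, DLK1, CDKN1C and MEST were among those not measured here. Each was represented by its brightest probe set and tested with limma over all 23999 probe sets, with Benjamini-Hochberg adjustment over all of them. From 94 dpc to 1 dpn 12 fell and 5 rose at an adjusted p under 0.05, with a median log2 difference of -0.39 over the 33. Of all probe sets 21.7% fell and 10.9% rose, with a median of -0.08. From 1 dpn to 28 dpn 5 fell and 2 rose (median 0.09), against 8.39% and 13.9% of all probe sets (median 0.10). From 28 dpn to 188 dpn 5 fell and 1 rose (median -0.24), against 8.2% and 3.65% of all probe sets (median -0.12). From 94 dpc to 188 dpn 13 fell and 6 rose (median -0.62), against 22.5% and 13.6% (median -0.07). After centring every array on its median, the last counts were 11 fallen and 9 risen, beside 3980 and 5116 of all 23999 probe sets. Those from 28 dpn to 188 dpn were 3 fallen and 2 risen, beside 1145 and 1723. The 11999 probe sets brighter than the median one, tested alone, were called more often than all probe sets. Of them 4332 fell and 2278 rose from 94 dpc to 1 dpn (median -0.23). Of the 25 imprinted genes among them 11 fell and 4 rose in that step (median -0.45).

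Of these 33 genes only NDN fell in both of the first steps, and none fell in all 3. In the first step 21.7% of all probe sets fell and in the second 8.39%. The share of all probe sets that fell in both, or in all 3, was not counted, so nothing is read from this count. NDN, a paternally expressed gene for a growth-restraining protein, had mean signals of 5440 ± 733, 3335 ± 893 and 1800 ± 219 (SD, n = 6 each) and 1191 ± 191 (SD, n = 4). Its log2 differences were -0.74 (adjusted p = 0.0029, limma) and -0.85 (adjusted p = 0.00158, limma), and then -0.59 (adjusted p = 0.0585). On the even newborn arrays alone the first was -1.22 (adjusted p = 2.45e-04, limma) and the second -0.36 (adjusted p = 0.25).

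Among the paternally expressed genes, the group to which PEG10 and PLAGL1 belong, 10 were measured. Of these 4 fell and 2 rose from 94 dpc to 1 dpn, beside 21.7% and 10.9% of all probe sets. The parental groups follow the list of genes imprinted in mammals, and which copy was read in these samples was not measured. PEG3, a zinc finger gene, had 379 ± 50.5 in the fetuses and 72.6 ± 51.4 in the newborns (SD, n = 6 each), a log2 difference of -2.42 (adjusted p = 3.97e-05, limma) with 2 newborns below background, and of -2.68 (adjusted p = 3.11e-04) on the even arrays. The other PEG3 probe set was not called across birth. IGF2, the fetal insulin-like growth factor, had 10399 ± 1675 in the fetuses and 4160 ± 962 in the newborns, a difference of -1.34 (adjusted p = 0.00625, limma), which was -1.15 (adjusted p = 0.14) on the even arrays. From 28 dpn to 188 dpn IGF2 fell by 2.20 (adjusted p = 0.00108, limma). Of its 12 other probe sets 5 fell and 2 rose across birth, so they disagree there. The risers were SNRPN and DIO3, a thyroid hormone deiodinase gene from the same domain as MEG3. DIO3 had 76.9 ± 43.7 in the fetuses and 165 ± 51.6 in the newborns, a difference of 1.08 (adjusted p = 0.0161, limma) that was 1.02 (adjusted p = 0.15) on the even arrays. SNRPN rose from 1610 ± 194 to 3255 ± 1184 and fell to 1706 ± 277 at 28 dpn (adjusted p = 0.00628 and 0.0167, limma). On the even arrays these differences were 0.11 and -0.03, with adjusted p of 0.82 and 0.96. The other SNRPN probe set was called in neither step.

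Of 17 maternally expressed genes, the group to which MEG3 belongs, 6 fell and 1 rose across birth, beside 21.7% and 10.9% of all probe sets. CD81, a tetraspanin, had 8452 ± 1011 in the fetuses and 2742 ± 1524 in the newborns, a log2 difference of -1.76 (adjusted p = 6.11e-06, limma) that was -0.92 (adjusted p = 0.00377) on the even arrays. CALCR, the calcitonin receptor and a marker of resting satellite cells, had 727 ± 83.7 and 265 ± 131, a difference of -1.57 (adjusted p = 0.00318, limma) that was -2.58 (adjusted p = 9.34e-04) on the even arrays. SLC22A3, a cation transporter, had 510 ± 103 and 221 ± 54.9, a difference of -1.16 (adjusted p = 1.02e-04, limma) that was -1.05 (adjusted p = 0.0070) on the even arrays. CD81, CALCR and SLC22A3 fell again from 28 dpn to 188 dpn, by 0.94, 1.61 and 1.05, with CALCR below background in 2 of 4 pigs at 188 dpn and SLC22A3 in 1 of 4. The call of CD81 in that step was lost with each array centred on its median (adjusted p = 0.096) and when either of 2 single samples was left out (adjusted p up to 0.075). CALCR in that step was also lost without 1 sample, at -1.01 (adjusted p = 0.087).

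PHLDA2, a growth-restraining gene best known from the placenta, fell from 564 ± 298 in the newborns to 187 ± 57.5 at 28 dpn, by 1.45 (adjusted p = 0.00488, limma). On the even newborn arrays this was -1.62 (adjusted p = 0.052). UBE3A, a ubiquitin ligase gene, fell across birth by 0.64 (adjusted p = 0.00502, limma) and rose from 2206 ± 183 at 28 dpn to 3671 ± 630 at 188 dpn, by 0.72 (adjusted p = 0.014). After the same centring the fall was -0.38 (adjusted p = 0.068), on the even newborn arrays it was -0.78 (adjusted p = 0.00727), and without 1 sample the rise was 0.62 (adjusted p = 0.068). IGF2R, which clears IGF2 from the cell surface, had 161, 212, 216 and 144 and passed the test at none of the 3 steps (adjusted p = 0.24 to 0.86, limma).

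In 6 genes whose imprinted copy varies by tissue or transcript, 2 fell and 2 rose across birth, beside 21.7% and 10.9% of all probe sets. GRB10, an adaptor that dampens insulin and IGF receptor signalling, ran opposite to the members: its mean was 1041 ± 80.7 in the fetuses and 4782 ± 3578 in the newborns, and 5015 ± 2250 and 7053 ± 1109 at 28 dpn and 188 dpn. The log2 rise across birth was 1.97 (adjusted p = 1.61e-05, limma) and 2.45 (adjusted p = 2.57e-04) on the even newborn arrays. On those arrays GRB10 was the 1 imprinted gene that rose across birth, while 12 fell, beside 1870 rises and 4231 falls over all 23999 probe sets. The even arrays include newborn replicate 1, which had a GRB10 signal of 12039 against 3914 in the next highest newborn. The lowest newborn, at 2755, was above the highest fetus, at 1160. GNAS rose from 72.5 ± 20.1 to 171 ± 59.1 and fell to 41.1 ± 34.8 at 28 dpn (adjusted p = 0.0158 and 2.28e-04, limma), with 4 of 6 piglets below background. On the even arrays the adjusted p was 0.20 for the rise and 0.0195 for the fall. COMMD1 fell across birth by 0.67 and rose after it by 0.94 (adjusted p = 0.00943 and 9.97e-04, limma), and on the even arrays these were -0.14 and 0.41 (adjusted p = 0.70 and 0.20).

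**Figure D4:**
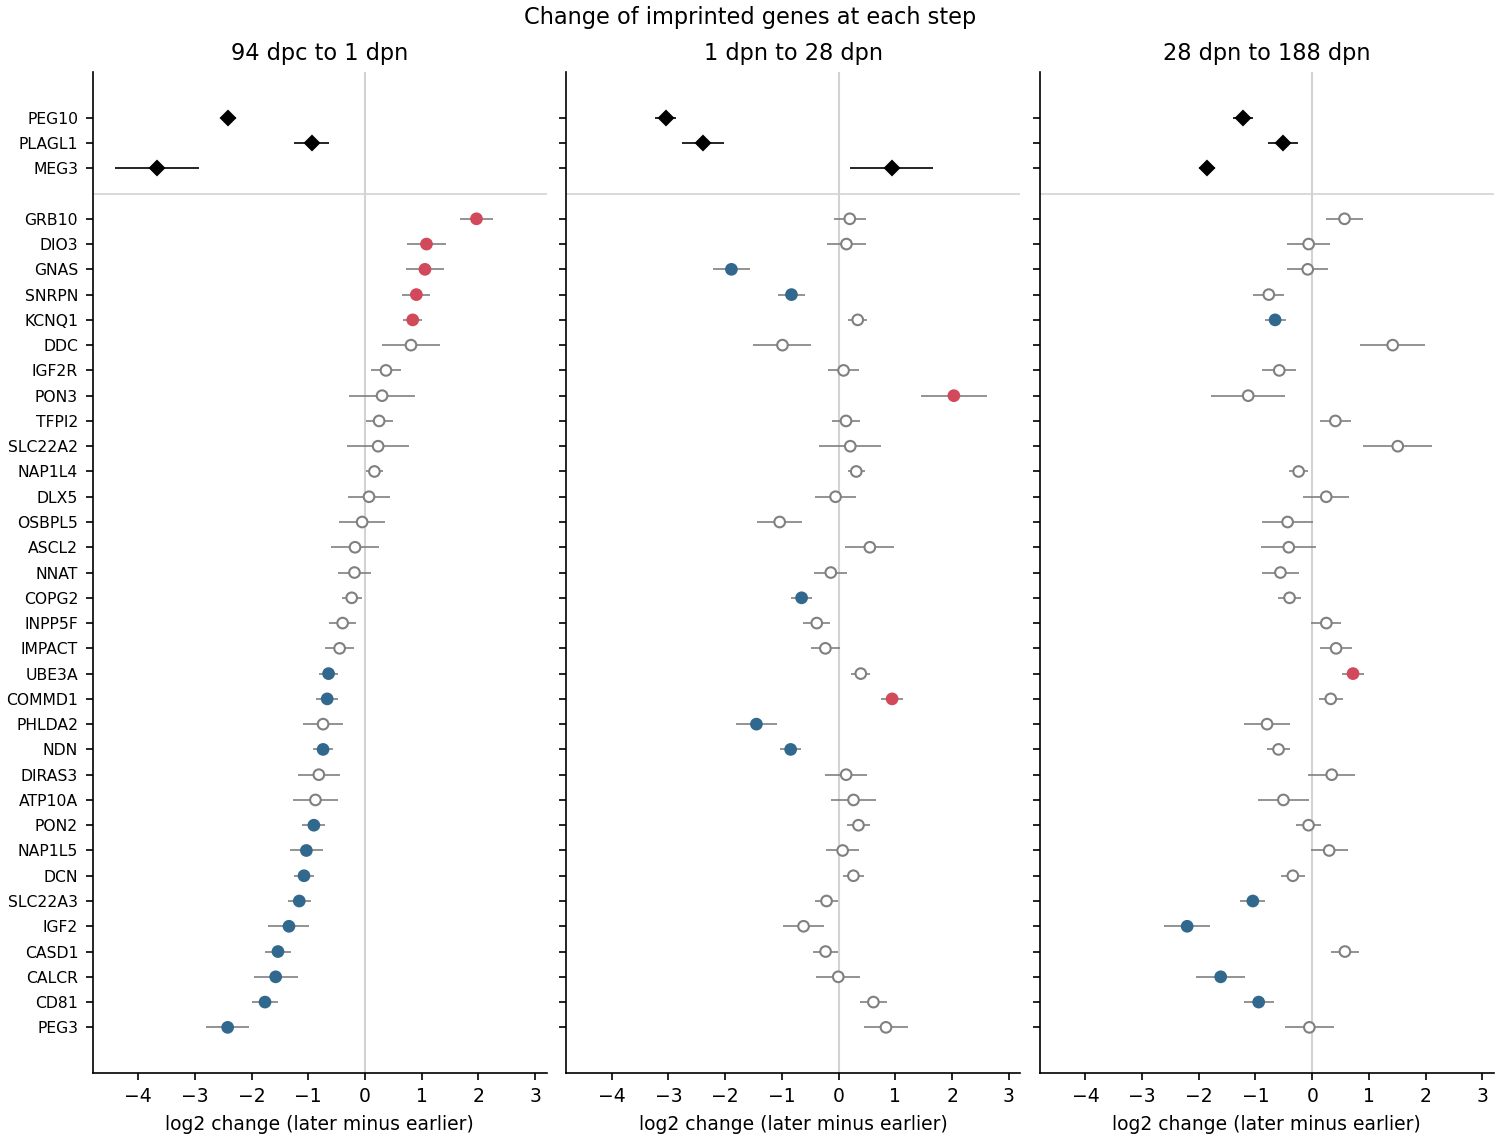
Log2 difference between neighbouring stages (x axis, later minus earlier, with standard error bars) for PEG10, PLAGL1 and MEG3 by their brightest probe sets (black diamonds) and for 33 other imprinted genes (circles, ordered by the first step). Blue and red circles passed limma at an adjusted p under 0.05 as lower or higher, open circles did not; the first panel holds 12 blue and 5 red circles and the second 5 blue and 2 red.

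The genes next to each member on the chromosome were taken from the RefSeq table of the Sscrofa11.1 assembly, 5 annotated entries on each side. Of the 30 entries 8 had a probe set, and these are not all imprinted. From 94 dpc to 1 dpn 4 of the 8 fell and none rose, beside 21.7% and 10.9% of all probe sets. From 1 dpn to 28 dpn 2 rose and 1 fell, beside 13.9% and 8.39% of all probe sets. From 28 dpn to 188 dpn 3 fell and none rose, beside 8.2% and 3.65%. On PEG10's side of the list, SGCE, its nearest neighbour, was not measured here. CASD1, which acetylates sialic acid, fell across birth from 1056 ± 115 to 365 ± 108, by 1.53 (adjusted p = 2.02e-05, limma), or 1.74 on the even arrays (adjusted p = 5.55e-04), and then did not pass the test, at 307 ± 81.6 and 478 ± 178. COL1A2, a collagen I chain, fell by 2.17, rose by 1.69 and fell by 1.90 over the 3 steps (adjusted p = 6.6e-07, 3.0e-05 and 1.08e-04, limma). On the even arrays its first differences were -1.77 and 1.30 (adjusted p = 8.87e-04 and 0.0136). PON3, a paraoxonase, lay below background in all 12 fetuses and newborns and rose to 229 ± 169 at 28 dpn, at least 1.77-fold above background (adjusted p = 0.0137, limma). At 28 dpn 2 of 6 piglets were below background, the lowest at 9.78 and the median at 327. On the even newborn arrays the adjusted p of PON3 was 0.16.

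Around PLAGL1 5 neighbours were measured. STX11, a vesicle fusion protein of immune cells, and PEX3, of peroxisome assembly, fell across birth by 0.62 and 0.56 (adjusted p = 0.0458 and 0.0209, limma). Both calls were lost with quantile normalization, with differences of -0.27 and -0.22, and also without any of 9 single samples for STX11 and any of 3 for PEX3. On the even newborn arrays they were -1.03 and -0.84 (adjusted p = 0.0232 and 0.0179). LTV1, of ribosome assembly, fell after birth by 0.56 (adjusted p = 0.0325, limma), or 0.74 on the even arrays (adjusted p = 0.0316), and leaving out any of 6 single samples ended the call. FUCA2, a fucosidase, fell from a median of 109 at 28 dpn to 47.7 at 188 dpn, and STX11 from 176 to 60.8 (adjusted p = 0.0304 and 0.0136, limma). Both medians at 188 dpn lie below background, as do 3 of 4 pigs for each gene, so no fold is given. The call of FUCA2 was lost with quantile normalization (adjusted p = 0.086), and without any of 5 single samples, and that of STX11 without 1 sample (adjusted p = 0.053). SF3B5, a splicing factor subunit next to PLAGL1, passed at no step, with means of 2963, 2408, 2558 and 3165. None of the entries next to MEG3, among them DLK1, RTL1 and several microRNA genes, was measured here.

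Genes reported to act with the members were also listed. Of 10 reported PLAGL1 targets 5 were measured (IGF2, PPARG, SLC2A4, SOCS3 and TCF4). IGF2 and PPARG fell across birth, where 21.7% of all probe sets fell. IGF2 fell again after 28 dpn, where 8.2% fell, and there was no other call in the 3 steps. PPARG, the adipocyte regulator, had 123 ± 32.0 in the fetuses and 42.1 ± 54.6 in the newborns, below background in 4 of 6 (adjusted p = 0.00964, limma). The newborn mean is itself below background, so no fold is given, and the call was lost on the even arrays (adjusted p = 0.91). No other member of the PLAG family was measured.

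Of 14 other genes derived from retroelement Gag sequences, as PEG10 is, 2 were measured. RTL6 had 1112 ± 104, 653 ± 247, 339 ± 108 and 258 ± 33.5 from the fetus to 188 dpn. It fell by 0.82 and 0.89 in the first steps (adjusted p = 0.00437 and 0.00362, limma), and on the even newborn arrays these differences were -0.23 (adjusted p = 0.56) and -1.48 (adjusted p = 5.40e-04). PNMA1 had 288, 212, 170 and 123 and did not pass at any single step. Of 8 TGF-beta receptors and other reported PEG10 partners 4 were measured. TGFBR1, the type I receptor, fell across birth from 829 ± 197 to 310 ± 113, by 1.41 (adjusted p = 4.8e-05, limma), and by 1.88 on the even arrays (adjusted p = 1.09e-04). From 1 dpn to 28 dpn its difference was 0.48 (adjusted p = 0.14), which passed on the even arrays at 0.94 (adjusted p = 0.0289). SMAD3 and SMAD4, which carry its signal to the nucleus, rose from 28 dpn to 188 dpn (adjusted p = 0.0198 and 0.0323, limma). SMAD4 rose by 0.70, and SMAD3 went from a mean of 67.6, below background in 4 of 6 piglets, to 192, so no fold is given for it. From 1 dpn to 28 dpn SMAD4 had a difference of 0.45 (adjusted p = 0.092), which passed on the even arrays at 0.68 (adjusted p = 0.0281). Leaving out single samples ended both calls after 28 dpn (adjusted p up to 0.074 and 0.095).

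Of 10 Polycomb and p53 genes reported to act with MEG3 4 were measured, and 3 fell across birth with none rising, beside 21.7% and 10.9% of all probe sets. EZH2, the Polycomb methyltransferase, had 306 ± 36.9 in the fetuses, 98.4 ± 80.6 in the newborns and 83.6 ± 31.3 at 28 dpn, and all 4 pigs at 188 dpn were below background. Its log2 difference across birth was -1.76 (adjusted p = 2.38e-04, limma), and -1.85 (adjusted p = 2.09e-04) on the even arrays. RBBP7 fell from 6146 ± 372 to 3704 ± 439 across birth and from 3575 ± 265 to 2581 ± 162 after 28 dpn, by 0.73 and 0.47 (adjusted p = 9.31e-05 and 0.0306). The first was -0.71 (adjusted p = 0.00278) on the even newborn arrays, and the second call was lost without any of 6 single samples. EED fell by 0.56 and rose by 0.56, calls lost on the even newborn arrays (adjusted p = 0.12 and 0.15), and JARID2, the fourth gene, had a difference of -0.18 across birth (adjusted p = 0.57) that passed on the even arrays at -0.98 (adjusted p = 4.53e-04). JARID2 fell after 28 dpn by 0.91 (adjusted p = 0.0151), which was -0.84 (adjusted p = 0.054) without 1 sample.

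Of 14 genes that set or keep imprinting marks 4 were measured. DNMT1, the maintenance DNA methyltransferase, had 1256 ± 233, 1026 ± 150 and 315 ± 55.8 (SD, n = 6 each) and 121 ± 17.8 (SD, n = 4), with no overlap in the last 2 steps. It fell by 1.66 from 1 dpn to 28 dpn (adjusted p = 4.15e-07, limma) and by 1.26 from 28 dpn to 188 dpn (adjusted p = 1.27e-04), and across birth the difference was -0.28 (adjusted p = 0.21). The fall after birth was 1.75 on the even arrays (adjusted p = 4.92e-05). CTCF, an insulator protein that binds imprinting control regions, fell across birth from 1289 ± 94.4 to 715 ± 205 and was at 1203 ± 72.6 at 28 dpn, by -0.88 and 0.78 (adjusted p = 1.98e-04 and 0.00109, limma). On the even arrays these were -1.04 and 0.95 (adjusted p = 4.48e-04 and 0.00175). DNMT3A and DNMT3B passed at none of the 3 steps.

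Markers of cell types that can carry these RNAs moved across the same stages. The 3 measured satellite cell and myoblast markers (MYF5, MYOD1 and NCAM1) all fell across birth, where 21.7% of all probe sets fell, and 2 fell after 28 dpn, where 8.2% fell. Their summed signal was 2756 to 3693 in the fetuses, 473 to 2058 in the newborns, 815 to 1943 at 28 dpn and 419 to 681 at 188 dpn. The newborn low was replicate 1 alone, and the next lowest newborn was at 1630. Of 4 fibroblast markers (COL1A2, COL3A1, DCN and LUM) 3 fell across birth, with sums of 26457 to 33641 in the fetuses and 10195 to 16264 in the newborns. Their sums were 12911 to 25107 at 28 dpn and 9604 to 15910 at 188 dpn. Of 6 endothelial markers 5 fell across birth, 4 rose after it, where 13.9% of all probe sets rose, and 3 fell after 28 dpn, with sums of 10903 to 13835, 2900 to 5087, 5964 to 8908 and 2033 to 3168. No marker of these 3 lists was below background in all samples of a stage, and of the 4 fibre markers 2 rose across birth, where 10.9% of all probe sets rose, and 3 rose after it. The part of cell makeup in the levels of PEG10, PLAGL1 and MEG3 was not tested.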

How the data were processed

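The authors deposited 1 table of signal intensity per probe set for 22 samples. The submitters' processing notes name GCOS 1.1.1. Biotinylated cRNA was made from 0.5 µg of total RNA, per the labels. Deposited intensity was on a linear scale (1 to 111760), and their mean after trimming 2% at each end was 500.1 to 500.2 on every array. Other steps of the scaling are not given in the sources used here. Values were used as log2(signal + 16) without further normalization, after leaving out 124 control probe sets of 24123. Of 23999 probe sets 10069 carried 1 symbol, 198 several and 13732 none in the annotation used here, and those with several were not named. Of the named probe sets 9961 had their identifier in the RefSeq table and 108 had not. No genome build is named for the array, so no coordinates are printed.

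Comparisons of stages used limma 3.58.1 (R 4.3.3), all stages in 1 fit, adjusted by Benjamini-Hochberg over all probe sets and tested on simulated data. Errors of the members come from the spread within stages. Correlations used exact permutation (scipy 1.17.1, two-sided, smallest possible p 0.00139). The p-values measure the spread between these animals, of which some share a dam. The number of arrays, 6, 6, 6 and 4, limits precision, and array pairs correlated at 0.835 to 0.968 with no identical pair.

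The members and all gene lists were chosen with earlier results of these data known. Named genes were IGF2, H19, DLK1, CDKN1C, GRB10, PEG3, MEST and IGF2R where measured, the 4 largest called rises and falls of imprinted genes per successive step, all measured chromosome neighbours, up to 2 called rises and falls per other list and step, and the 5 genes most like each member. PNMA1, DNMT3A, DNMT3B and other genes outside this rule are named only as list members, after their values were seen. Alternatives were other scalings, a pseudocount of 1, a filter on dim probe sets, trended variances, 2-stage fits, each sample left out, the GAPDH ratio as a covariate, the even newborn arrays alone and other probe sets of a gene.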

Additional observations from a re-analysis of the deposited data

Results flagged for a closer look

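In groups of 4 to 6 animals, 11 of 164 gene and stage combinations held 1 animal that stood far apart from the others, and about 1 in 20 would be expected by chance. Among the members this concerned only a dim PEG10 probe set, Ssc.24007.2.S1_at, at 32.5 in fetus 3 against 6.04 in the next highest fetus, both below background.

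Among other imprinted genes, GRB10 was highest in newborn 1, at 12039 against 3914 in the next newborn, and in piglet 3 at 28 dpn, at 9470 against 5049. IGF2 was lowest in newborn 5, at 2403 against 4052. SNRPN was lowest in piglet 3 at 28 dpn, at 1187 against 1696, and PHLDA2 in piglet 6, at 84.7 against 172. GNAS was lowest in fetus 3, at 37.0 against 66.7.

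Among neighbours and partners, COL1A2 was lowest in piglet 6 at 28 dpn, at 832 against 1690, and PEX3 highest in piglet 2, at 255 against 182. PON3 was highest in fetus 1, at 45.4 against 13.3, both below background. SMAD4 was lowest in pig 1 at 188 dpn, at 2062 against 2776.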

How the results depend on the processing

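Every value below is a log2 difference or a count of calls, and where it moved the cause was not tested. PEG10 was -2.92 with quantile normalization and -2.15 with arrays centred on their median from 94 dpc to 1 dpn (-2.41 as reported), and -6.99 and -6.41 from 94 dpc to 188 dpn. Its dim probe sets, mostly below background and not read as changes, gave -0.75 and 0.59 across birth, 0.74 and 0.27 to 28 dpn, -0.24 and 0.13 to 188 dpn, and -0.24 and 1.00 over the whole span. PLAGL1 was -3.57 over the whole span when centred. Its next brightest probe set gave -1.06 to 28 dpn and -3.36 over the whole span, and its dim one -0.35 to 28 dpn, 0.11 to 188 dpn and -0.64 over the whole span. MEG3 was -1.93, -0.38 and -2.06 over the 3 steps with the GAPDH ratio as a covariate, and -1.56 and -1.18 for the first steps with the even newborn arrays. Its dimmer probe set gave -1.76, -1.74, -1.54 and -5.04. Centred, MEG3 was -1.65 from 28 dpn to 188 dpn and -4.32 over the whole span. Leaving out each sample in turn kept the direction of the brightest probe set of each member at all steps, with the brightest MEG3 probe set at -4.28 to -3.30 and 0.56 to 1.54 in the first steps and PEG10 at -2.51 to -2.35 and -3.13 to -2.95.

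Calls over all probe sets from 1 dpn to 28 dpn were 5357, and 3347 in the fit of these stages alone. Imprinted genes called there were 7, and 3 (2 higher, 1 lower) with the even newborn arrays. Across birth the even arrays gave 1 higher and 12 lower, against 5 and 12. Over all probe sets they gave 1870 higher and 4231 lower, against 2626 and 5210. The share of calls that were higher over all probe sets was 33.5%, 62.4%, 30.8% and 37.7% in the 4 comparisons, 47.4%, 49.8%, 44.2% and 48.6% with quantile normalization, and 57.7%, 39.7%, 60.1% and 56.2% when centred, where the median of all probe sets moved from -0.08, 0.10, -0.12 and -0.07 to 0.18, -0.09, 0.08 and 0.20. Leaving out single samples gave 1928 to 2740 calls from 28 dpn to 188 dpn, against 2843. Of 99 results of 33 named genes, no call changed direction in any alternative run. No paired analysis was possible because the replicate numbers follow accession order and no label ties animals across stages. Signal near background limits PEG3, GNAS, DIO3, PON3, PPARG, SMAD3, FUCA2, STX11, EZH2 and CALCR, and the dim PEG10 and PLAGL1 probe sets.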

Other observations

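Adipocyte and macrophage markers did not follow the gradient of the members. The sum of 3 adipocyte markers (ADIPOQ, FABP4 and LEP) was 2763 to 5922 in the fetuses, 7296 to 15320 in the newborns, 4404 to 9370 at 28 dpn and 2156 to 4070 at 188 dpn, with 1 of the 3 called higher across birth. Of 3 macrophage markers (CD163, C1QA and C1QC) 2 rose from 1 dpn to 28 dpn and 2 fell after it, with sums of 856 to 2642 in the newborns and 1856 to 7466 at 28 dpn. Of 2 erythroid markers (HBB and ALAS2) 1 fell across birth, 1 rose after it and 1 fell after 28 dpn, with sums of 775 to 1199 in the fetuses and 432 to 658 at 188 dpn. Of 6 hepatocyte markers 2 fell and 1 rose across birth. Of all probe sets 21.7% fell and 10.9% rose across birth. From 1 dpn to 28 dpn 8.39% fell and 13.9% rose, and after 28 dpn 8.2% fell and 3.65% rose.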
